A study of Mus musculus with 6 samples.

Results

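The large histone gene cluster of the mouse, called Hist1, lies in 2 blocks on chromosome 13. The cytosines examined here are all CpG cytosines of the files between 21.78 and 22.15 Mb (the lower interval) and between 23.5 and 23.88 Mb (the upper interval) of chromosome 13 in the mm9 build. DNA methylation was measured by reduced representation bisulfite sequencing (RRBS), in which MspI cuts DNA at CCGG, so that mainly CpG-rich fragments are read. Bisulfite changes unmethylated cytosine to uracil, and 5-methylcytosine and 5-hydroxymethylcytosine are read alike as methylated. The intervals held 350 of the 750119 cytosines listed in any library, and 111 of the 369208 autosomal cytosines listed in all 6 libraries. The choice of members used position alone, though earlier results of these data were known when it was made.

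All libraries came from E14 mouse embryonic stem cells that carried short hairpin RNAs (shRNAs). There was 1 library for each of 6 groups. The control carried a control shRNA, and 3 groups had a single target, which was Dnmt1, Dnmt3a or Dnmt3b. In 1 group both Tet1 and Tet2 were targeted, and in the last, called the double knockdown, both Dnmt3a and Dnmt3b. The title of the Dnmt1 sample names the shRNA Dnmt1a. No RNA or protein level was used, so neither the depletion of a target nor the activity of a histone gene was checked. Read depth per cytosine is unknown, since the files give levels without counts, and no comparison between groups has a replicate or a p-value. An SD given here is over cytosines and describes spread along the DNA, not replicate error.

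The replication-dependent histone genes encode the core histones H2A, H2B, H3 and H4 and the linker histone H1, which package newly copied DNA. They are transcribed mainly in S phase, and their messages end in a stem-loop in place of a poly(A) tail. DNMT1 copies methylation onto new DNA strands, DNMT3A and DNMT3B methylate DNA de novo, and TET1 and TET2 oxidise 5-methylcytosine. CpG-rich promoters of genes used in every dividing cell are usually free of methylation.

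No gene positions on mm9 were at hand. Promoters of the RefSeq table (GRCm38.p6) were therefore placed by sequence, by fitting the 5-base contexts and the spacing of listed cytosines to each promoter. With at least 5 fitting cytosines, 4 genes of chromosome 13 were placed in the intervals and 0 genes of other chromosomes. Of 54 Hist1 histone genes in the gene table, 2 were placed: H1f2, which encodes linker histone H1.2, and H4c3, which encodes histone H4. The other placed genes were Zfp184, a zinc finger protein gene in the lower interval, and Gm52036, a long non-coding RNA gene in the upper one. Among 49 Hist1 histone promoters in the table, 35 had no CCGG within their 300 bases and 6 had 2 or more. That is 12.2% with 2 or more, against 32.6% of all 32851 promoters. H1f2 and H4c3, which were read, have 1 each, and whether the number of sites sets which promoters were read was not tested. With 3 fitting cytosines, H2ac15 and H3c6 could be placed as well, but 24 genes of other chromosomes then fitted too.

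The placed promoters that the results rest on are shown from 5′ to 3′ on the gene's strand, with the CpGs at which a cytosine was listed in capitals. The H1f2 stretch is chr13:23830556-23830705 (mm9, plus strand) and the H4c3 stretch is chr13:23790298-23790447 (minus strand), each with 120 bases before the transcription start and 30 from it on. They show which CpGs of these histone promoters were read, all of them low. The Gm52036 stretch is chr13:23556193-23556342 (plus strand), with 100 bases before the start and 50 from it on and shows CpGs of a low island with a trace of methylation.
H1f2: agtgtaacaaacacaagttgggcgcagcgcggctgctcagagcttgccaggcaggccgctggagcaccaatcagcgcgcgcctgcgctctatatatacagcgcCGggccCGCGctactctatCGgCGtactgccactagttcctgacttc
H4c3: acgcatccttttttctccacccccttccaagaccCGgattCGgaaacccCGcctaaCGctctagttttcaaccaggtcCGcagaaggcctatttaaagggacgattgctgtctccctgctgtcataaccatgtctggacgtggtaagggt
Gm52036: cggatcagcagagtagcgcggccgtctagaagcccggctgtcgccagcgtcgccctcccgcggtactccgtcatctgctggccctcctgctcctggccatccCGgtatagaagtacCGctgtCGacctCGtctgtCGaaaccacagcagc

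The placed genes also show where the intervals leave the histone genes. In the gene order of GRCm38.p6, Gm52036 comes before the remaining 30 Hist1 histone genes, and between H2bc11, the preceding histone gene, and Gm52036 lie 40 protein-coding genes and 31 tRNA genes. The 48 cytosines of the upper interval up to the end of the Gm52036 promoter, with 3 of the 10 clusters described below, thus precede these 30 histone genes in that order. In the same gene order, counted from the first Hist1 histone gene on, 19 histone genes and 21 tRNA genes precede Zfp184. Between Zfp184 and Gm52036 lie 5 Hist1 histone genes, 41 tRNA genes and 42 other protein-coding genes. Which of these genes lie in the lower interval is not known, since no coordinate was converted. In that interval 47 cytosines and 1 cluster lie before the Zfp184 promoter, and 129 cytosines and 3 clusters from it on. The label of a histone gene cluster therefore covers other sequence as well, and most cytosines here could not be tied to a gene.

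Both placed histone promoters were low in every library that listed them, and all but 1 cytosine in 1 library were at or near 0%. At H1f2, 13 cytosines from 17 bases before to 826 bases after the transcription start were listed in all 6 libraries. Their mean was 0.138% in control, 0.162% for Tet1 and Tet2, 0% for Dnmt1, 0.146% for Dnmt3a, 0.115% for Dnmt3b and 0.062% in the double knockdown. No cytosine at H1f2 was above 1.3% in any library, so methylation was at most a trace from the promoter into the gene.

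At H4c3, 5 promoter cytosines from 86 to 42 bases before the start were listed in every library but Dnmt1. All 5 read 0% in control, Dnmt3a, Dnmt3b and the double knockdown. In the Tet1 and Tet2 library 4 read 0% and the one 64 bases before the start read 8.3%. That library alone listed 7 further cytosines downstream of the H4c3 start, all at 0%. The cytosine 42 bases before the start lies in the letters GGTCCG, which are part of the known H4 promoter element bound by HINFP. These letters, searched on both strands, were in 10 of 11 Hist1 H4 promoters, in 2 of the other 38 Hist1 promoters and in 8.25% of all promoters in the table. The letters CCAAT, a box bound by NF-Y, were in 41 of the 49 Hist1 promoters and in 37.4% of all, and both H1f2 and H4c3 have them.

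Zfp184 resembled the histone promoters. Its 5 promoter cytosines, listed in all libraries but Dnmt1, read 0% in each, and so did 13 further cytosines downstream that the Tet1 and Tet2 library alone listed.

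Genes that act on the histone genes were looked up in the same way. Of 16 such genes, 7 had a placed promoter: Npat, the coactivator of the histone locus body, Casp8ap2, which acts in histone transcription and 3′ end processing, Ccne1 and Cdk2, which make cyclin E-CDK2, Cpsf3, the 3′ end endonuclease, and the transcription factor genes Creb1 and Pou2f1. The highest mean at any of them in any library was 0.467%, at Npat in the Tet1 and Tet2 library. None of the histone genes outside Hist1 (12 with a promoter in the table) and none of the testis histone genes (5 with one) could be placed. Among marker genes, 1 of 8 pluripotency genes (Sox2, 0% in control over 12 promoter cytosines) and 1 of 4 fibroblast genes (Vim, 0% in control and at most 0.85% in any library) were placed. Both were unmethylated, so these promoters do not tell the cell types apart and the labelled cell type was not checked. Of 4 germline genes 2 were placed. In control Dazl read 82.6% over 8 promoter cytosines and Mael 41.4% over 10, so promoters with methylation are seen with the same method.

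Over all 111 shared cytosines the intervals were mostly unmethylated. Cytosines were classed by their median over the 6 libraries as low (below 20%), intermediate or high (above 80%). There were 98 low, 11 intermediate and 2 high cytosines. Low ones made up 88.3%, compared with 68.2% of 13801 cytosines on the rest of chromosome 13 and 68.4% of 355296 on the other autosomes. In the 1350 kb between the intervals 39 of 65 shared cytosines, or 60%, were low. No test was made of these shares, since cytosines on 1 fragment are not independent.

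Shared cytosines at most 100 bp apart, at least 5 together, formed 10 clusters. Of these, 9 were low and are called islands here, and 1 was intermediate. The share of low clusters was 79.9% on the rest of chromosome 13 and 76.8% on the other autosomes. The clusters were small, with a median of 6 cytosines and at most 13, against medians of 9 and 8 outside. Low cytosines had a median of 4 other shared cytosines within 100 bp, against 9 for low cytosines of all autosomes.

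The methylated sequence lay mostly apart from the islands and was sparsely read. When all 350 cytosines listed in any library were joined over gaps of at most 1000 bp, they formed 55 stretches, of which 42 were low with 298 cytosines, 8 intermediate with 43 and 5 high with 9. The lower interval had 21 low, 3 intermediate and 1 high stretch, and the upper one 21, 5 and 4. The 5 high stretches held 1 to 3 cytosines each. Of the 13 methylated shared cytosines, which are the intermediate and high ones, 4 had no other shared cytosine within 100 bp, against 5 of the 98 low ones. A stretch was classed by the median of its library means, over the cytosines each library lists, so low stretches also held 5 cytosines with a median of 20% or more. One of these, at 22097190 (76.3% in control), lay in a stretch of 39 cytosines with an island at its other end. Another 3 at the start of the stretch chr13:21801289-21802183 were listed for Dnmt3b alone and read 41.7%, 75% and 83.3%. The last, at 23556940, was listed for Dnmt3b alone at 30%.

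The clearest case of methylated sequence between unmethylated promoters lay between H4c3 and H1f2. In the 40.2 kb between them, 5 stretches with 13 cytosines were listed, and none of the 5 was low. In the gene order this gap holds no other histone gene and 1 other protein-coding gene, Hfe, which encodes a regulator of iron uptake. The stretch chr13:23802556-23802713 was intermediate and read 39.1% in control, 40.4% for Tet1 and Tet2, 10.6% for Dnmt3a and 37.9% for Dnmt3b over 3 cytosines each, 27.3% in the double knockdown over 5, and 8.3% for Dnmt1 over 1. At 23802713, the cytosine listed for Dnmt1, control read 47.2% and Tet1 and Tet2 75.6%. At 23802625 control read 30% and Tet1 and Tet2 0%, and at 23802602 they read 40% and 45.5%. The stretch chr13:23815439-23815475, with 3 cytosines on the minus strand, read 91.7% in control, 91.7% for Tet1 and Tet2, 92.1% for Dnmt3a, 90.6% for Dnmt3b and 92.1% in the double knockdown, and was not listed for Dnmt1. The 5 libraries that listed this fully methylated stretch thus lay within 2 points of each other, while Dnmt3a was far below control in the partly methylated one. The stretch chr13:23809056-23809163 read 85.03% in control, 87.2% for Tet1 and Tet2, 89.4% for Dnmt3b and 65.6% in the double knockdown over 3 cytosines, and 75% for Dnmt3a over 2. The low double knockdown mean came from 23809056 (37.5% against 86.7% in control), which Dnmt3a did not list. At 23809154 and 23809163, which both list, the double knockdown read 81.5% and 77.8% and Dnmt3a 83.3% and 66.7%. Control read 100% and 68.4% there.

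**Figure D1:**
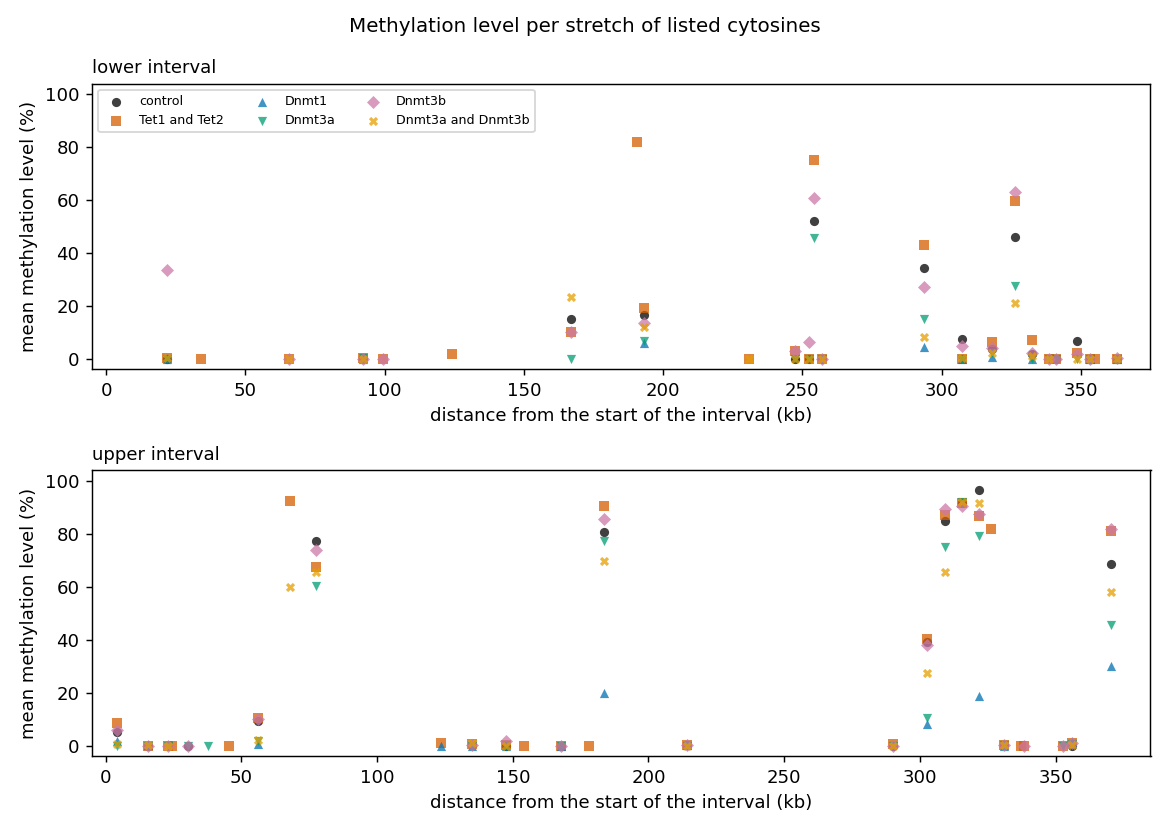
Mean methylation level in percent (vertical axis) of each of the 55 stretches of listed cytosines, against distance from the start of each interval in kb, with 1 symbol per library; a library's mean is over the cytosines it lists there, so sets differ between libraries. Most of the 42 low stretches lie near 0% between scattered methylated ones, and in the upper interval 4 of the 5 high stretches lie between the H4c3 and H1f2 promoters.

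The libraries listed different members. Control listed 207, Tet1 and Tet2 293, Dnmt1 127, Dnmt3a 231, Dnmt3b 234 and the double knockdown 206. The Tet1 and Tet2 library alone listed 73. These counts have no value over all autosomes beside them, so they are not read as a trait of the intervals. Of cytosines listed in the other 5 libraries, Dnmt1 lacked 41 of 139 low ones (29.5%) and 11 of 24 methylated ones (45.8%), compared with 10.9% and 31.0% over all autosomes. Comparisons were therefore made over shared cytosines, and those without Dnmt1 were repeated over the 163 members listed in the other 5 libraries, 139 low and 24 methylated.

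The Dnmt1 knockdown asked how far methylation here depends on the maintenance enzyme. The 13 methylated cytosines had a mean of 12.6% ± 10.1 (SD over cytosines) in the Dnmt1 library and 62.2% ± 21.3 in control. All 13 were lower, beside 112023 of 112398 methylated cytosines on the other autosomes. The mean difference over the 13 was -49.6 ± 17.0 percentage points, or -79.7% of the control level. The same relative difference was -77.2% on the rest of chromosome 13 and -79.2% on the other autosomes. At the 11 intermediate cytosines the median difference was -44.2 points, against -56.7 and -56.2 there. The level that remained was lower in the lower interval (4.58% over 6 cytosines) than in the upper one (19.6% over 7), where control was also higher (48.1% and 74.4%). Of the 122 members that control and Dnmt1 share, 14 lay 20 points or more below control (11.5%, beside 31.1% of autosomal cytosines) and 0 lay as far above it (beside 0.0115%). These shares count low members as well. All 13 methylated cytosines lay 20 points or more below control, beside 98.0% of methylated ones on the other autosomes.

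At single cytosines the Dnmt1 library kept between 0% and 31.2%. The lowest was at position 22073999 (0%, against 52.1% in control). The highest were at position 23683382 (31.2% against 91.1%) and at position 23870458 (30% against 68.6%). Among the cytosines listed in all 6 libraries, the one with the highest level in control, at 23821806, read 96.5% there and 18.8% in the Dnmt1 library. In the other libraries it read between 79.2% and 91.5%, so only the Dnmt1 library is far from the rest at that cytosine.

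**Figure D2:**
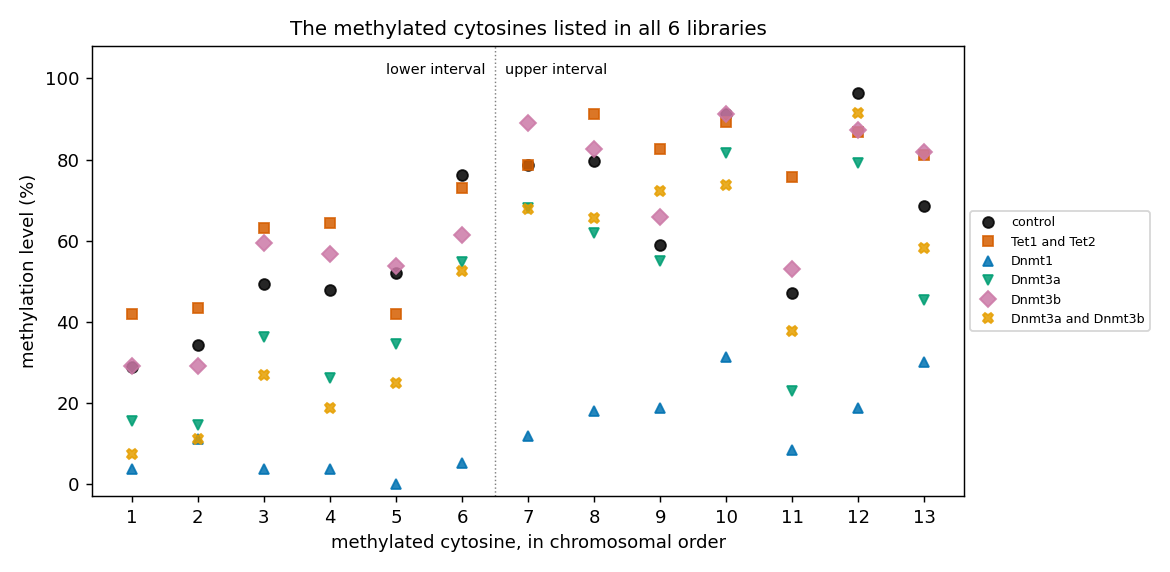
Methylation level in percent (vertical axis) of the 13 methylated cytosines listed in all 6 libraries, in chromosomal order, with 1 symbol per library. The Dnmt1 library is the lowest at each of the 13, Dnmt3a is below control at each, and the double knockdown is below Dnmt3a at each of the 6 cytosines of the lower interval.

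The Dnmt3a knockdown was lower than control at all 13 methylated cytosines, beside 97532 of 112398 on the other autosomes. Its mean over the 13 was 45.8% ± 23.0, a difference of -16.4 ± 6.0 points. At the 11 intermediate cytosines the median difference was -17.7 points, against -14.9 on the rest of chromosome 13 and -15.0 on the other autosomes. Over the 24 methylated members listed in the 5 libraries other than Dnmt1, Dnmt3a was lower at 23, by a mean of -16.0 points. The exception was 1 of the 6 high ones. Of the 201 members that control and Dnmt3a share, 9 lay 20 points or more below control (4.48%, beside 7.99% of autosomal cytosines) and 1 lay as far above it (0.498%, beside 0.293%). These shares count low members as well. Of the 11 intermediate cytosines 4 lay 20 points or more below control (36.4%, beside 31.6% on the other autosomes).

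The Dnmt3b knockdown differed little from control on average, and not in 1 direction. The 13 methylated cytosines read 64.7% ± 21.04, which is 2.42 ± 8.23 points above control, higher at 9 and lower at 3. On the other autosomes 60012 of 112398 methylated cytosines were higher and 50962 lower. Over the 24 methylated members of the 5-library set the Dnmt3b library was 3.996 points above control, higher at 17 and lower at 6. The direction turned with the strand, at 5.33 points above control over 8 cytosines on the plus strand and -2.24 over 5 on the minus strand. Over methylated cytosines that control and Dnmt3b both list, the difference was 5.43 points. Of the 195 members that control and Dnmt3b share, 0 lay 20 points or more below control (beside 1.22% of autosomal cytosines) and 4 lay as far above it (beside 1.74%). Of these 4, 3 lay in 1 stretch of 5 cytosines from 22106395 to 22106563. That stretch read 46.2% in control, 59.6% for Tet1 and Tet2, 27.5% for Dnmt3a and 63.1% for Dnmt3b over all 5, and 20.97% in the double knockdown over 3 of them. It was not listed in the Dnmt1 library.

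The double knockdown was lower than control at 12 of 13 methylated cytosines, beside 89678 of 112398 on the other autosomes. Its mean over the 13 was 46.8% ± 27.3, a difference of -15.4 ± 11.4 points. In the lower interval the difference was -24.5 ± 3.0 points over 6 cytosines, and in the upper interval -7.66 ± 10.04 points over 7. At the 11 intermediate cytosines the median was -21.5 points, against -9.9 on the rest of chromosome 13 and -10.8 on the other autosomes. It was -23.4 over the 6 in the lower interval, 5 of them within 44 bp, and -10.5 over the 5 in the upper one, which is close to the levels outside. Of the 181 members shared with control, 12 lay 20 points or more below control (6.63%, beside 4.9% of autosomal cytosines) and 0 lay as far above it (beside 0.421%). Of these 12, 9 were in the lower interval.

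Compared directly, the double knockdown was below Dnmt3a alone in the lower interval. It read 23.6% against 30.3% there, a difference of -6.72 ± 3.15 points, and was lower at 6 of 6 cytosines. In the upper interval it read 66.7% against 59.2%, 7.54 ± 9.24 points higher, with 5 of 7 cytosines higher. Over methylated cytosines outside the intervals on all autosomes it was 3.20 points above Dnmt3a, with 76635 of 116781 higher. Of the 6 cytosines in the lower interval, 5 lie on the same strand within 44 bp and are not independent. Over the 10 methylated members of the lower interval listed in the 5 libraries other than Dnmt1, the double knockdown was lower than Dnmt3a at 7 and the mean difference was -3.7 points.

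These 5 cytosines make up the one methylated cluster, chr13:22073956-22073999, on the plus strand. It read 42.5% in control, 50.9% for Tet1 and Tet2, 4.44% for Dnmt1, 25.4% for Dnmt3a, 45.6% for Dnmt3b and 17.8% in the double knockdown. A cluster was called where its mean moved by 20 points or more and at least 80% of its cytosines moved the same way. This was the one cluster of 10 called lower in the Dnmt1 library, beside 22.9% of 22524 autosomal clusters, and the one called lower in the double knockdown, beside 1.29%. The 9 islands read at most 6.25% in control and could not fall by 20 points, so no other cluster could be called lower. In the other knockdowns 0 clusters of the 10 were called. The autosomal shares there were 3.36% lower for Dnmt3a, 0.0222% lower and 0.0799% higher for Dnmt3b, and 0.0178% lower and 0.222% higher for Tet1 and Tet2. Higher calls were also 0 here in the double knockdown, beside 0.00444%. Along the plus strand its 5 cytosines read 28.8%, 34.2%, 49.3%, 47.9% and 52.1% in control. In the double knockdown they read 7.3%, 11.2%, 26.9%, 18.7% and 24.9%. The cytosine of the MspI site at the left end was the lowest in both. This partly methylated fragment comes after Zfp184 on the chromosome and was not tied to a gene.

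The Tet1 and Tet2 knockdown was higher than control at methylated cytosines. The 13 read 70.2% ± 17.97, which is 8.0 ± 12.1 points above control, higher at 8 and lower at 4. On the other autosomes 72039 of 112398 methylated cytosines were higher and 38928 lower. Over the 7 of the 13 with a median of at least 50% the difference was 4.74 points. The 11 intermediate cytosines had a median difference of 12.6 points, against 5.0 on the rest of chromosome 13 and 5.2 on the other autosomes, while the 2 high ones were lower by a mean of -5.8 points. The largest differences among shared cytosines were at 23802713 (75.6% against 47.2%) and at 23683339 (82.7% against 58.9%). Of the 186 members shared with control, 5 lay 20 points or more above control (2.69%, beside 2.58% of autosomal cytosines) and 1 lay as far below it (0.538%, beside 0.889%), so the share of calls was near the background.

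**Figure D3:**
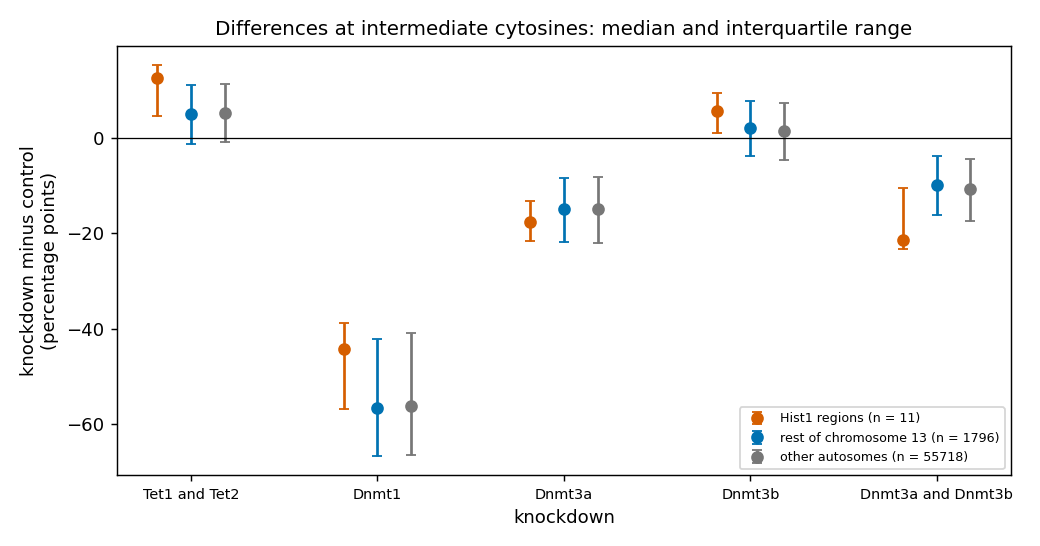
Difference of each knockdown from control in percentage points (vertical axis) at intermediate cytosines, as the median (point) with the interquartile range over cytosines (bar), for the 11 in the Hist1 intervals, 1796 on the rest of chromosome 13 and 55718 on the other autosomes. The Hist1 point for the double knockdown (-21.5) lies below both others (-9.9 and -10.8), a gap carried by the 6 cytosines of the lower interval (-23.4, against -10.5 over the 5 of the upper one), and that for Tet1 and Tet2 (12.6) above them (5.0 and 5.2).

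Among the 9 islands, 5 were at or near 0% in every library. The 3 with the most cytosines were chr13:23515412-23515524 (13 cytosines), chr13:21872259-21872426 (10) and chr13:23830659-23830805 (10, at H1f2). The first read 0% in control and at most 0.138% elsewhere, the second 0.31% in control and at most 0.24% elsewhere, and the third 0.09% in control and at most 0.21% elsewhere. The islands chr13:22133074-22133122 and chr13:23714202-23714251, with 5 cytosines each, read at most 0.24% in any library.

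The other 4 islands carried a trace of methylation that differed between libraries. The island chr13:22099098-22099225 (6 cytosines) read 6.25% in control, 13.6% for Tet1 and Tet2, 0.55% for Dnmt1, 0.617% for Dnmt3a, 6.07% for Dnmt3b and 0.433% in the double knockdown. The island chr13:23503596-23503693 (6 cytosines) read 5.15% in control, 9.55% for Tet1 and Tet2, 2.22% for Dnmt1, 0% for Dnmt3a, 6.65% for Dnmt3b and 0.7% in the double knockdown. In both, Dnmt1, Dnmt3a and the double knockdown are below control, Dnmt3b is close to it and Tet1 and Tet2 is the highest.

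The Gm52036 island, chr13:23556295-23556328, has 5 cytosines within 35 bases after the transcription start, shown in capitals in the sequence above. It read 4.74% in control, 10.5% for Tet1 and Tet2, 0.58% for Dnmt1, 2.06% for Dnmt3a, 5.98% for Dnmt3b and 1.24% in the double knockdown. Each of its 5 cytosines was higher in the Tet1 and Tet2 library than in control, with levels from 4.5% to 13.5% against 2.2% to 6.4%. The fourth trace island, chr13:23856662-23856779 (6 cytosines), differed from these 3. It read 0% in control, 2.1% for Tet1 and Tet2, 1.53% for Dnmt1, 0.733% for Dnmt3a, 2.15% for Dnmt3b and 0.233% in the double knockdown, so that control was the lowest. The islands at 23503596 and at Gm52036 lie on the side of the upper interval that precedes its histone genes. The island chr13:23515412-23515524, at 0% in control and at most 0.138% elsewhere, lies on that side as well.

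**Figure D4:**
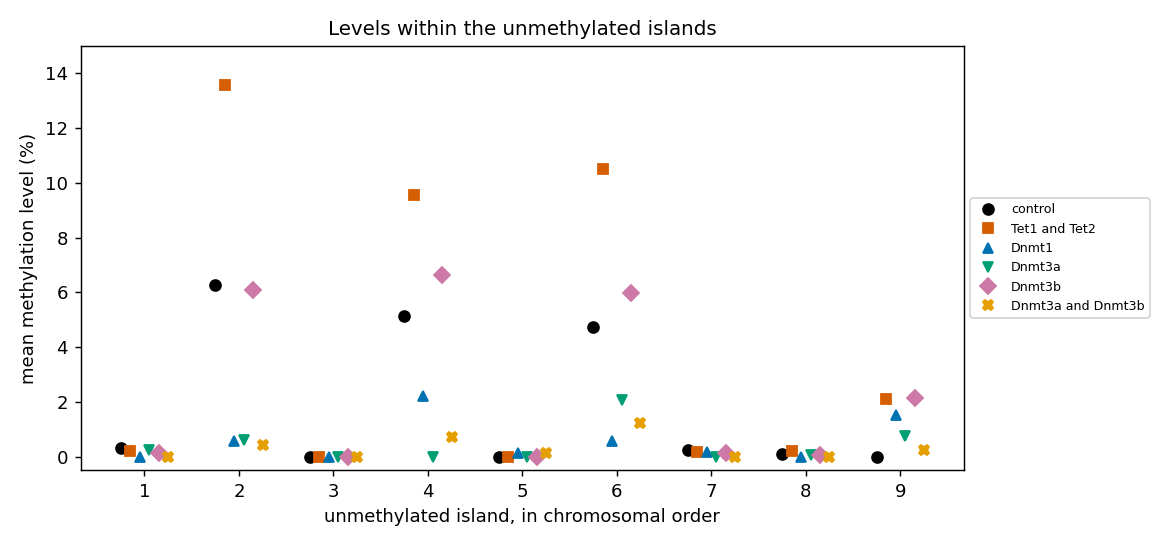
Mean methylation level in percent (vertical axis) of the 9 unmethylated islands in chromosomal order, with 1 symbol per library. Islands 2, 4 and 6 read between 4.74% and 6.25% in control and between 9.55% and 13.6% in the Tet1 and Tet2 library, while islands 1, 3, 5, 7 and 8 stay at or below 0.31% in all 6.

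Traces that differ between the libraries in these directions were common in low clusters of all autosomes. Of 17324 low autosomal clusters 20.9% had a median of at least 1% over the libraries, against 4 of the 9 here. Among those autosomal clusters 96.9% were lower for Dnmt3a and 83.3% higher for Tet1 and Tet2, and here 3 of 4 and 4 of 4 were. Over all 98 low cytosines the level was 1.37% in control, 2.49% for Tet1 and Tet2, 0.404% for Dnmt1, 0.349% for Dnmt3a, 1.48% for Dnmt3b and 0.381% in the double knockdown. On the rest of chromosome 13 low cytosines read 1.58% in control, 2.14% for Tet1 and Tet2 and 0.618% for Dnmt3a. Of the 98 low members 55 read the same for Dnmt3a and control, 33 were lower and 10 higher. For Tet1 and Tet2 50 were equal, 33 higher and 15 lower. Without the cytosines up to the Gm52036 promoter, a set chosen after the data were seen, the low difference of Tet1 and Tet2 was 0.743 points in place of 1.13.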

How the data were processed

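RRBS libraries of 6 shRNA groups, 1 each, were used. Per the submitters' processing notes, CASAVA 1.8 and Bismark 0.10.1 were used with mm9. The deposited files give, per cytosine, a methylation level as a fraction from 0 to 1 that the authors made, with a 5-base context and no read counts, so no coverage minimum could be set. Entries without a level were left out. Levels were multiplied by 100 and libraries joined by position, strand and context (Python 3.11.15, pandas 2.3.3, NumPy 2.4.6). Cytosine classes used the median of 6 libraries, with limits of 20% and 80%. Clusters needed 5 cytosines at most 100 bp apart. Stretches were defined after the data were seen. Differences of 20 points or more were called, without a test. RefSeq promoters (GRCm38.p6) were placed by contexts and spacing, with no mismatch, at 1 place that no other promoter fitted, and no coordinate was converted between builds. Placement and the 20-point calls at single cytosines were tested on simulated data, and cluster calling was not. The simulated placement searched far fewer cytosines than the real data hold and listed a larger share of each promoter's CpG cytosines. It therefore does not measure how often a promoter is placed wrongly here. Named were the placed histone promoters, the 3 largest low and methylated clusters, called clusters and, chosen after their values were seen, further cytosines, islands and stretches. Members and lists were chosen with earlier results of these data known. Alternatives were other limits, sets, strands and intervals.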

Additional observations from a re-analysis of the deposited data

How the results depend on the processing

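With no replicates, a mean was counted as moved when it changed by more than its standard error over cytosines, and a count when it changed by over 1.5 times. Of 141 alternative values 85 did not move by this measure and the others did. Some of the 85 could not move, because the setting left the same cytosines as the main one. Merging strands and leaving out the cytosines up to the Gm52036 promoter both kept the same 13 methylated cytosines. Classes taken from Tet1 and Tet2 and from Dnmt3b kept the same 13 methylated and 98 low cytosines. The count of 85 is therefore not a measure of how stable the results are. A sign change was seen for 5 values, all for Dnmt3b, and the causes were not tested. All differences are in percentage points from control. At methylated cytosines, the plus strand alone gave -44.6 for Dnmt1, 5.33 for Dnmt3b and -19.8 for the double knockdown, and the minus strand alone -57.5, -2.24 and -8.44, so that the Dnmt3b difference changed sign. The lower interval alone gave -43.5 for Dnmt1 and -24.5 for the double knockdown, and the upper one -54.8 and -7.66. With a median of at least 50% the values were -59.4 and -9.7, and 4.74 for Tet1 and Tet2. Over cytosines that control and the knockdown list (classed where at least 4 libraries list them), Dnmt3a gave -12.3 and Dnmt3b 5.43, and with 1 value per stretch, a setting added after the data were seen, Dnmt3a gave -19.0.

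At low cytosines, the plus strand gave -1.71 for Dnmt1, -1.60 for Dnmt3a, -0.106 for Dnmt3b and -1.515 for the double knockdown, and the minus strand -0.087, -0.333, 0.38 and -0.362. The lower interval gave -1.58, -1.485, -0.38 and -1.405, and the upper -0.534, -0.695, 0.46 and -0.697. The direction for Dnmt3b (0.117 over all 98) thus depended on the strand and on the interval, and it also turned with 1 value per stretch (-0.083) and without the cytosines up to the Gm52036 promoter (-0.05). Over cytosines that control and the knockdown list, Tet1 and Tet2 gave 0.642, Dnmt3a -1.43 and the double knockdown -1.31, and without the Dnmt1 library Tet1 and Tet2 gave 0.712. With 1 value per stretch Dnmt1 gave -1.53 and Dnmt3a -1.526. Without the cytosines up to the Gm52036 promoter, also added after the data were seen, Tet1 and Tet2 gave 0.743, Dnmt3a -0.749 and the double knockdown -0.728.

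The control level of low cytosines was 1.71% without the Dnmt1 library, 2.055% on the plus and 0.556% on the minus strand, and 1.87% in the lower and 1.02% in the upper interval. For intermediate cytosines it was 48.1% in the lower and 66.6% in the upper interval, and 49.3% with classes taken from the Tet1 and Tet2 library and from Dnmt3b, which gave 82.9% for high ones. With at least 3 cytosines per cluster there were 15 unmethylated islands and 2 methylated clusters, with at least 10 there were 3 and 0, and with every cytosine that has a level in control there were 16 islands. Placement gave 4 histone promoters with at least 3 cytosines and 0 with at least 10. No coverage minimum was tried, since there are no counts, and no replicate could be left out. No paired analysis was possible because each group has 1 library and the labels give no replicate numbers.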
